A study of Mus musculus with 2 samples.

Results

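The Bcl2 family genes described here are Bcl2, Bcl2l1, Bcl2l11, Mcl1, Bax, Bak1, Bid, Bad, Bbc3 and Bmf, compared between CD8+ and CD8- dendritic cells (DCs) of mouse spleen. They were chosen as all probe sets, groups of short probes for a transcript, that the platform annotation pairs with exactly 1 of these 10 genes. This gave 31 probe sets for 9 genes, out of 34958 single-gene probe sets for 18194 genes in all. Bax had no probe set under this rule and was not analysed here. Both populations came from C57BL/6 mice bearing Flt3L-producing tumours of the mouse melanoma line B16, and Flt3L is a cytokine that expands DCs. Splenic DCs were taken 10 to 12 days after injection, enriched on magnetic columns and sorted by flow cytometry as CD11c+ cells lacking CD3, a T cell marker, and B220, a marker of B cells and plasmacytoid DCs, with or without CD8α. Neither population was stimulated, and both were exposed to Flt3L and to the tumour. Each was measured on 1 Affymetrix array, so no value has a replicate and no test could be made. The labels do not say whether mice were pooled.

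Proteins of the Bcl2 family decide whether the outer membrane of mitochondria stays intact. Survival proteins such as BCL2, BCL-XL and MCL1 hold the pore-forming effectors BAX and BAK in check. BH3-only proteins, named for the short helix they share with the rest of the family, bind the survival proteins or activate the effectors. Once the membrane is open, cytochrome c reaches the cytosol and caspases are activated. In DCs, BCL2 and the BH3-only protein BIM are known to act on cell lifespan from opposite sides.

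Among the 9 genes with probe sets, Bcl2 alone differed by 2-fold or more in its brightest probe set, and it was lower in CD8+ DCs in all 5 of its probe sets. The BH3-only genes Bcl2l11, Bid and Bad were higher in CD8+ DCs, each by less than 2-fold, in every one of their probe sets. Mcl1 and Bmf were lower, and Bcl2l1 higher, in CD8+ DCs in all of their probe sets. These genes, Bak1 and Bbc3 each differed by less than 1.2-fold in the probe set with the highest mean signal, which stands for each gene below. All values are log2 signals, and a difference is CD8+ minus CD8-. A gene counted as measured where its higher value reached 3.85, the median of all values, called the floor below. All 9 genes reached it on both arrays in that probe set, and 27 of the 31 probe sets reached it on at least 1 array.

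Of the 9 genes, 1 passed 2-fold in favour of CD8- DCs and 0 in favour of CD8+ DCs. Over all 11404 measured genes, 5.97% did so toward CD8- DCs and 3.55% toward CD8+ DCs, so the members' count is near the background. At 1.5-fold the members' counts were 1 in CD8- DCs and 2 in CD8+ DCs, where 11.5% and 8.49% of measured genes passed. At 4-fold 0 members passed, beside 2.10% and 0.859% of measured genes. By sign, 4 members were higher and 5 lower in CD8+ DCs, beside 52.6% and 44.8% of measured genes. The median difference of the members was -0.06, and that of all measured genes was 0.03. As a scale for these differences, probe sets of the same gene differed among themselves by a pooled SD of 0.30 over 5183 genes. That SD does not hold variation between mice, sorts or hybridisations.

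**Figure D1:**
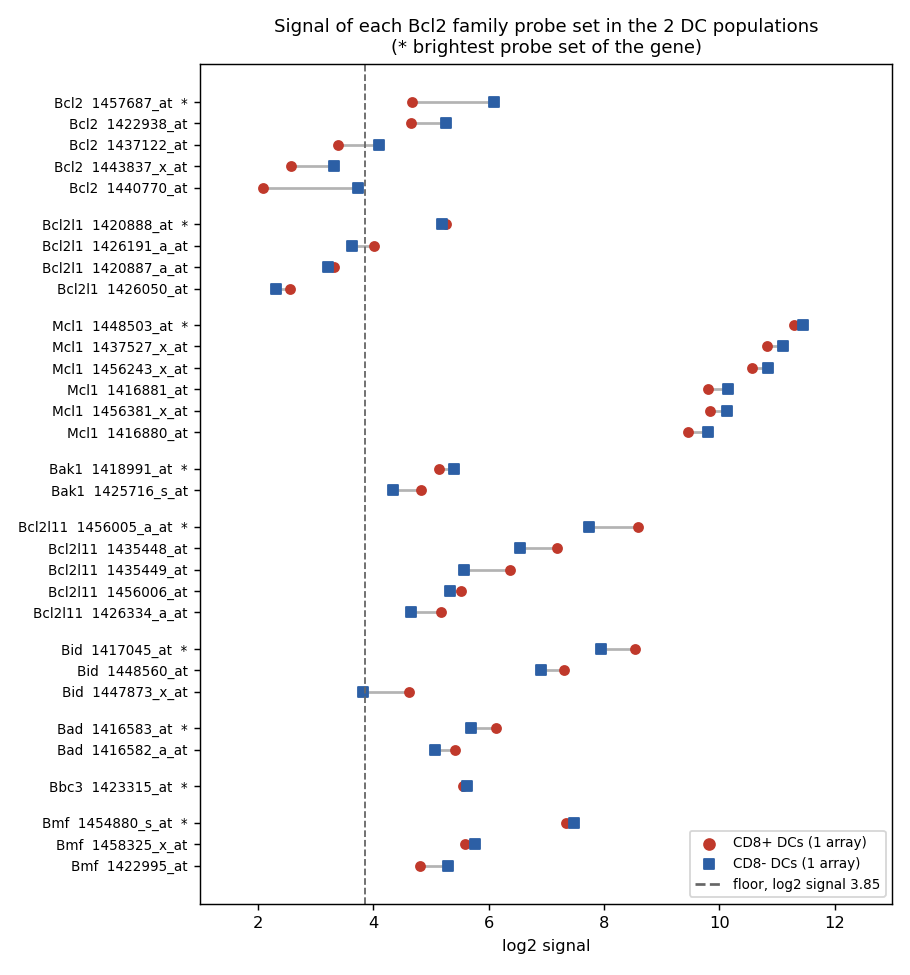
Log2 signal (x axis) of each of the 31 probe sets (rows, grouped by gene) in CD8+ DCs (circles) and CD8- DCs (squares), 1 array each. The 5 Bcl2 rows have the CD8+ circle to the left of the square, and the 5 Bcl2l11, 3 Bid and 2 Bad rows have it to the right.

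Of the survival genes, Bcl2 differed most. Its brightest probe set (1457687_at) had a log2 signal of 4.67 in CD8+ and 6.10 in CD8- DCs, a difference of -1.43, or 2.69-fold. Only 3.53% of measured genes had a lower difference. Among the 1935 measured genes within 0.5 of the mean log2 signal of Bcl2 (5.38), 7.96% passed 2-fold in favour of CD8- DCs. The arrays measured whole sorted populations, so fewer cells with a transcript and less of it per cell cannot be told apart.

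The size of the Bcl2 difference depended on the probe set, and its sign did not. The next brightest Bcl2 probe set (1422938_at) read 4.65 and 5.26, a difference of -0.62 that is 1.54-fold. It is the only Bcl2 probe set that the annotation pairs with a RefSeq transcript, which the brightest is not. A further probe set (1437122_at) read 3.38, below the floor, and 4.11. The remaining 2 probe sets were below the floor on both arrays, at 2.58 and 3.33 (1443837_x_at) and at 2.09 and 3.73 (1440770_at). The CD8+ value was the lower one in all 5, with a mean difference of -1.03 ± 0.47 (SD over 5 probe sets, which are not replicates). That mean holds the 2 probe sets below the floor, and over the 3 that reached the floor it was -0.92, under 2-fold. The 2-fold call therefore rests on the brightest probe set.

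Mcl1 encodes a short-lived survival protein. Its brightest probe set read 11.29 in CD8+ and 11.44 in CD8- DCs, a difference of -0.15 that was within the SD between probe sets of a gene (0.30). The other 5 probe sets differed by -0.35 to -0.27, and the mean over all 6 was -0.28 ± 0.07 (SD over probe sets). CD8+ DCs had the lower value in 6 of 6 probe sets, with differences no larger than 1.28-fold. Bcl2l1, which encodes BCL-XL and, by alternative splicing, the shorter death-promoting BCL-XS, read 5.25 and 5.19. Its difference of 0.07 was within the SD between probe sets of a gene. Its other probe sets read 4.01 and 3.63 (1426191_a_at), 3.31 and 3.21, and 2.56 and 2.32, the last pairs being below the floor on both arrays. CD8+ DCs were thus the higher ones in all 4 Bcl2l1 probe sets, by 0.07 to 0.39. The spliced forms were not resolved.

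Bak1 was the 1 effector gene with values, and its probe sets disagreed. It read 5.14 in CD8+ and 5.39 in CD8- DCs in the brighter probe set (1418991_at) and 4.82 and 4.33 in the other (1425716_s_at). The differences of -0.25 and 0.49 have opposite signs, so no direction is given for Bak1.

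The BH3-only genes fell into a set that was higher in CD8+ DCs and a set that was not. Bcl2l11, which encodes BIM, a binder of all the survival proteins, read 8.58 in CD8+ and 7.75 in CD8- DCs. Its difference of 0.84, or 1.79-fold, was exceeded by 4.80% of measured genes. Its other probe sets read 7.19 and 6.54, 6.38 and 5.57, 5.52 and 5.32, and 5.18 and 4.65. All 5 were higher in CD8+ DCs, by 0.19 to 0.84 (mean 0.60 ± 0.26, SD over probe sets). The forms of BIM made by alternative splicing were not resolved.

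Bid encodes the protein that caspase 8 cleaves to carry a death receptor signal to mitochondria. It read 8.54 in CD8+ and 7.95 in CD8- DCs, a difference of 0.59, or 1.51-fold, and 8.26% of measured genes had a higher one. Its other probe sets read 7.31 and 6.90, and 4.62 and 3.83, the last value being just below the floor. All 3 were higher in CD8+ DCs (mean 0.60 ± 0.19, SD over probe sets). Bad, whose protein is held inactive by 14-3-3 proteins when growth factor kinases phosphorylate it, read 6.13 and 5.70. Its second probe set read 5.41 and 5.07, so the differences were 0.43 and 0.34, at most 1.35-fold.

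Bbc3 and Bmf did not share that direction. Bbc3, which encodes the p53-inducible protein PUMA, had 1 probe set, at 5.56 in CD8+ and 5.62 in CD8- DCs. Bmf, whose protein is tethered to the cytoskeleton through a dynein light chain, read 7.34 and 7.48, 5.59 and 5.76, and 4.81 and 5.30. The CD8- value was the higher one in all 3 Bmf probe sets, by 0.14 to 0.49. Of the 5 BH3-only genes, 3 were thus higher and 2 lower in CD8+ DCs, and their median difference was 0.43. The 3 survival genes had a median of -0.15.

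**Figure D2:**
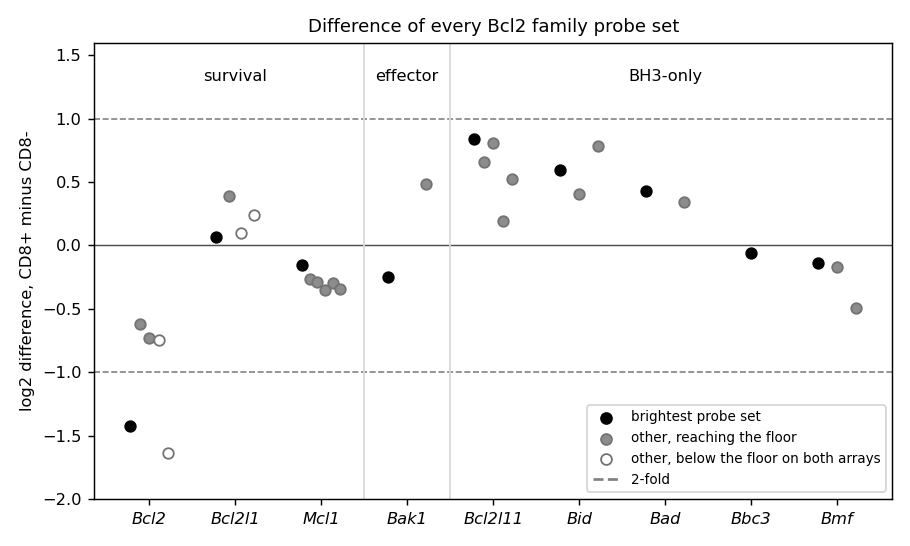
Log2 difference, CD8+ minus CD8- (y axis), of every probe set of the 9 genes (x axis), grouped by role, with dashed lines at 2-fold. Bcl2 lies below the zero line in all 5 probe sets, Bcl2l11, Bid and Bad lie above it, and the Bak1 points lie on both sides.

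Counted over all probe sets, bright or dim, agreement among many probe sets of a gene was not the rule on these arrays. Bcl2, Bcl2l11 and Mcl1 had 5 or more single-gene probe sets each, and in each gene all of them had the same sign. Of the 859 genes with at least 5 single-gene probe sets, 26.0% were so. That share includes probe sets and genes below the floor. It is not a like background for Bcl2l11 and Mcl1, whose probe sets all reached the floor. Over all members, 15 of 31 probe sets were higher and 16 lower in CD8+ DCs, beside 52.1% and 41.1% of the 34958 single-gene probe sets. Past 2-fold there were 0 toward CD8+ DCs (1.94% of all) and 2 toward CD8- DCs (3.39% of all). These 2 were both Bcl2 probe sets, 1 of them below the floor on both arrays.

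**Figure D3:**
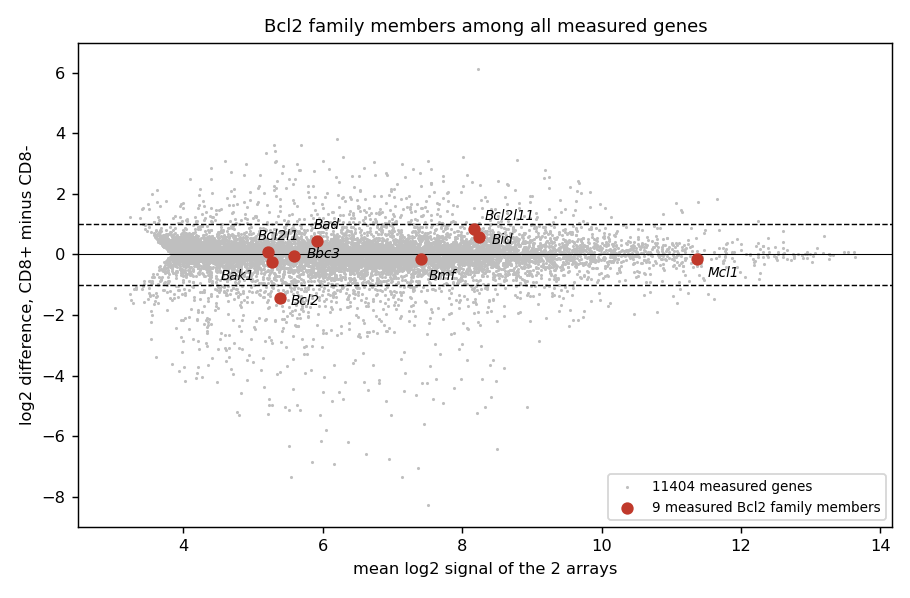
Log2 difference, CD8+ minus CD8- (y axis), against mean log2 signal (x axis) for the 11404 measured genes, each by its brightest probe set, with the 9 members named and dashed lines at 2-fold. Bcl2 lies below the lower line at -1.43, and the other 8 members lie between the lines.

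Survival and BH3-only genes were also compared through the difference of their differences, which is the change of their ratio between the arrays and does not set the level of a probe set against that of another. The ratio of Bcl2 to Bcl2l11 was 4.80-fold lower in CD8+ DCs (log2 -2.26). It was lower in all 25 pairs of their probe sets (log2 -2.48 to -0.81). That count follows from the signs given above and is no further support. For Bcl2 to Bid the log2 value was -2.02, and for Bcl2 to Bad it was -1.86. The ratio of Mcl1 to Bcl2l11 was 1.99-fold lower in CD8+ DCs (log2 -0.99), in 30 of 30 probe set pairs, which also follows from the signs. Bcl2l1 to Bcl2l11 stood at -0.77, with 18 of 20 pairs below 0. Mcl1 to Bbc3 (-0.09) and Mcl1 to Bmf (-0.01, with 11 of 18 pairs below 0) were near 0. Bcl2l1 to Bbc3 (0.13) and Bcl2l1 to Bmf (0.21) were slightly higher in CD8+ DCs. These ratios share genes and are not independent of each other. Such ratios show unequal differences in transcripts and say nothing of protein.

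The sequences before the starts of Bcl2, Bcl2l11 and Bid are shown because these genes had the largest differences, on opposite sides. Each is the 250 bases upstream of a RefSeq start in GRCm38.p6, on the gene's strand, and all 10 members matched the RefSeq table, with 18 starts. Capitals mark the GC box (GGGCGG) and the FOXO site (GTAAACA), searched on both strands. The windows are chr1:106714291-106714540 (minus strand) for Bcl2, chr2:128125788-128126037 (plus strand, the more upstream of 2 starts) for Bcl2l11, and chr6:120916825-120917074 (minus strand) for Bid.
Bcl2: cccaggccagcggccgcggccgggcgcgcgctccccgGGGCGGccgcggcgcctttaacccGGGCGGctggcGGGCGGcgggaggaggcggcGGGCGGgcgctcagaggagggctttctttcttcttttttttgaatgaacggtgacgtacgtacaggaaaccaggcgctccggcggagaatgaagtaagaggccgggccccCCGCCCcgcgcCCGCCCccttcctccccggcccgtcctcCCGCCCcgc
Bcl2l11: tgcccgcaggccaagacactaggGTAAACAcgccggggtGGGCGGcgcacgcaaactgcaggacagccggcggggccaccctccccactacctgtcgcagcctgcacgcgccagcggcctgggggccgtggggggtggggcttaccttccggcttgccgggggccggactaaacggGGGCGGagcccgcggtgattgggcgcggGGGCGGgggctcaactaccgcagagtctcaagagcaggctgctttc
Bid: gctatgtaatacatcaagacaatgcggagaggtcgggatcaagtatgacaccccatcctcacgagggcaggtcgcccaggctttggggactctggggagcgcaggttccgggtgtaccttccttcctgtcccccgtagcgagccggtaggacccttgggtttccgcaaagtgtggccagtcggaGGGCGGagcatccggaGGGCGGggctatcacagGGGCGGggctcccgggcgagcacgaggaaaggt

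The Bcl2 window held 7 GC boxes, and the Bcl2l11 and Bid windows held 3 each. A GC box was present in 10 of the 18 member windows and in 32.7% of all 32851 windows of this length. Some genes have several windows, and some Bbc3 windows overlap, so the 18 are not independent. The share was not compared at like GC content, which was higher in the member windows (below). The FOXO site, the motif of the forkhead factors known to act on Bcl2l11, was found once in the Bcl2l11 window, 227 bases before the start. The other match among members was in a Bbc3 window, and 3.17% of all windows held one. The window of the other Bcl2l11 start held none. In CD8+ and CD8- DCs, Foxo1 read 6.91 and 7.01, Foxo3 7.21 and 7.46, and Foxo4 4.52 and 5.03. A role of these factors in the differences was not tested. In all 8 motifs were searched. The AP-1 site (TGANTCA), the cyclic AMP response element (TGACGTCA) and the TATA box (TATAAA) were in 0 of the 18 windows, against 6.75%, 1.55% and 12.4% of all windows. The CCAAT box (CCAAT) was in 6 of 18 windows (33.8% of all), the E-box (CANNTG) in 12 (66.2%) and the ETS core (GGAA) in 17 (93.4%). No match of a motif overlapped one of another motif in the 3 printed windows. The member windows had a median GC content of 63.2% and 18 CpG, against 52.4% and 6 for all windows. A match is a run of letters, and binding was not measured.

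Beyond the 10 genes, 11 of 19 other genes of the family were measured. Bcl2l14, which encodes the family member BCL-G, passed 2-fold in favour of CD8+ DCs, and 0 of the 11 did so toward CD8- DCs. It read 7.60 in CD8+ and 5.46 in CD8- DCs, a 4.41-fold difference, and its 2 probe sets differed by 1.87 and 2.14. This is larger than the difference of each of the 9 genes above. Pmaip1, which encodes the MCL1-binding BH3-only protein NOXA and was named after its values were seen, read 11.74 and 12.14. The list had a median difference of 0.14, with 7 genes higher and 4 lower in CD8+ DCs. Over all measured genes, 52.6% were higher and 44.8% lower, and 3.55% passed 2-fold toward CD8+ DCs and 5.97% toward CD8- DCs. The Bcl2a1 paralogs have no single-gene probe set and are not reported.

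For the lists that follow, the background over all measured genes is 44.8% lower in CD8+ DCs. Past 2-fold it is 3.55% toward CD8+ DCs and 5.97% toward CD8- DCs. Downstream of the mitochondrion, 12 of 15 apoptosome and caspase genes were measured, and 1 passed 2-fold toward CD8+ DCs (median -0.04). It was Casp6, an executioner caspase gene, at 9.53 in CD8+ and 8.26 in CD8- DCs, or 2.41-fold. Its other probe set differed by only 0.60, and with its probe sets averaged the difference was 0.93, under 2-fold. Of 9 genes of the inhibitor of apoptosis list, 8 were measured, 6 of them lower in CD8+ DCs, and 0 passed 2-fold (median -0.38). The 2 probe sets of Birc3 differed by -0.51 in the brighter and -1.13 in the other. Birc5, which encodes survivin, a protein of dividing cells, read 8.20 and 9.06, and Birc2, which encodes cIAP1, read 7.33 and 8.04. In the death receptor list, 8 of 14 genes were measured, 2 higher and 6 lower in CD8+ DCs, and 1 passed 2-fold toward CD8- DCs (median -0.22). The 5 probe sets of Cflar differed by -1.36 to -0.39, with -0.60 in the brightest. Tnfrsf1b, which encodes TNF receptor 2, read 6.23 in CD8+ and 7.55 in CD8- DCs, or 2.51-fold, and its probe sets differed by -1.33 and -0.72. Fas was below the floor on both arrays, at 3.57 and 3.45.

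Upstream, the lists held few large differences, and the same background shares apply (44.8% lower, 3.55% and 5.97% past 2-fold). Of 13 transcriptional regulators of BH3-only genes, 10 were measured and 8 were lower in CD8+ DCs, with 0 past 2-fold (median -0.35). Cebpb (5.15 and 6.08) and Jun (9.92 and 10.76), a component of AP-1, differed most. Of 23 genes whose proteins modify or bind Bcl2 family proteins, 20 were measured, 10 higher and 10 lower in CD8+ DCs, with 0 past 2-fold (median 0.00). Dynll2, which encodes a dynein light chain that binds BMF, read 8.73 and 8.10, and its probe sets differed by 0.63 and 1.01. Without the probe sets whose names end in _x_at or _s_at, Dynll2 passed 2-fold. Pim2, a kinase gene, read 4.99 and 4.45. Of 18 genes of the mitochondrial list, 17 were measured and 0 passed 2-fold (median 0.08). Itpr3, a calcium channel gene, read 5.50 and 6.47, and Slc25a4, an adenine nucleotide carrier gene, read 9.72 and 9.24.

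**Figure D4:**
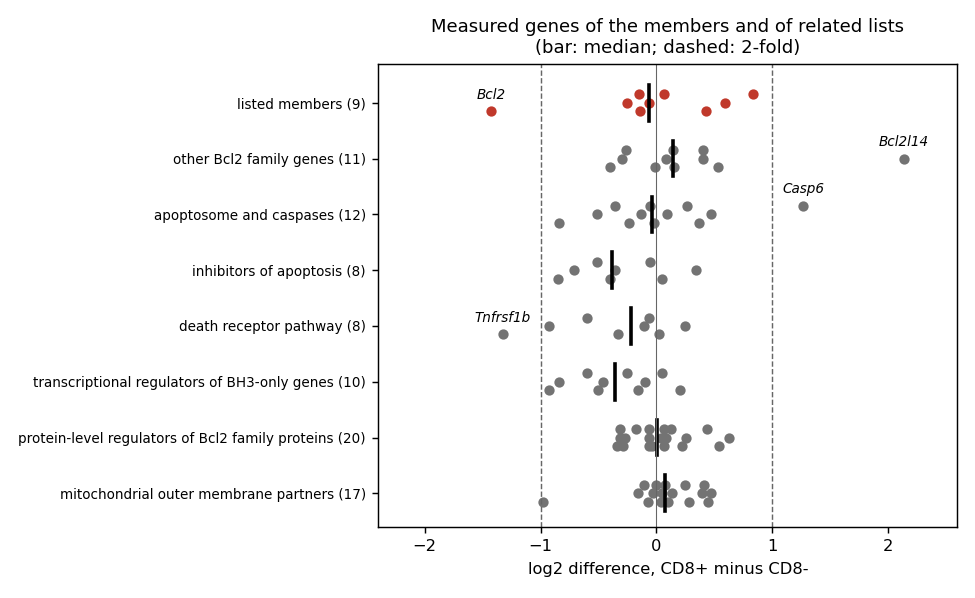
Log2 difference, CD8+ minus CD8- (x axis), of each measured gene in the members and in 7 related lists (rows, number of genes in brackets), with bars at the median and dashed lines at 2-fold. Bcl2, Bcl2l14, Casp6 and Tnfrsf1b lie outside the lines.

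The sort was visible in its markers. Cd8a read 11.29 in CD8+ and 5.15 in CD8- DCs, 8 of 9 measured CD8+ DC markers passed 2-fold toward CD8+ DCs, and 9 of 9 CD8- DC markers did so toward CD8- DCs. Their summed linear signals were 12785 and 2703 for the first list and 233 and 6507 for the second, in CD8+ and CD8- DCs. Because lymphocytes and macrophages also express Bcl2 family genes, their markers are given beside the Bcl2 difference. Of 9 T cell markers on the array, 6 were below the floor on each array, with summed signals of 110.1 and 128. B cell markers summed to 1238 and 1209, mostly from Ighm (9.83 and 9.93), so the sums say little of the other markers. Of 6 measured, 3 were higher and 3 lower in CD8+ DCs. Fcrla (7.71 and 5.13) passed 2-fold toward CD8+ DCs, and Cd79b (3.28 and 6.59) and Blnk (3.15 and 4.58) toward CD8- DCs. Cd79a, Cr2 and Pax5 were below the floor on both arrays. Of 6 measured macrophage and monocyte markers, 4 passed 2-fold toward CD8- DCs and 1 toward CD8+ DCs, with summed signals of 234 and 509, and the other 3 on the array were below the floor on both arrays. The 10 plasmacytoid DC markers summed to 653 and 845, with 5 higher and 5 lower in CD8+ DCs. Past 2-fold were Ccr9 (8.03 and 5.94) toward CD8+ DCs and Lair1 (3.91 and 7.74) and Tcf4 (5.47 and 7.55) toward CD8- DCs. NK cell markers summed to 858 and 2379.5, but 6 of 9 were below the floor on both arrays, Ncr1 and Eomes among them, and the sums came mostly from Ccl5 (6.70 and 10.19) and Klrk1 (9.44 and 10.17). Below the floor on both arrays were 8 of 9 neutrophil markers (sums 87.6 and 70.9), 3 of 7 erythroid markers (158 and 422) and 4 of 7 melanoma markers (113 and 109). Of the 4 measured erythroid markers, Tfrc (6.30 and 8.34) and Car2 (4.11 and 5.62) passed 2-fold toward CD8- DCs. Epor and Klf1 were higher in CD8+ DCs, each by less than 2-fold. The part of other cells in the Bcl2 family differences was not tested.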

How the data were processed

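Total RNA of the 2 sorted populations was labelled as biotinylated cRNA and hybridised, 1 array each, per the labels' protocols. The deposited table holds log2 signals of 45101 probe sets made by the authors with RMA, per the submitters' processing notes. That method subtracts background, equalises the quantiles of arrays and summarises probes, so a shift shared by most genes would not be visible. The RMA version and a genome build are not stated in those notes. Array medians were 3.86 (CD8+) and 3.83 (CD8-).

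Genes were named from the platform annotation, with symbols updated by gene identifier against RefSeq GRCm38.p6 (34754 of 34958 single-gene probe sets matched). Probe sets with several genes (932) or none listed (9211) were left out. The brightest probe set stood for a gene, the floor was the median of all values (3.85), and the threshold was 2-fold. Differences of log2 values were computed with no test. The number of arrays limits the precision. Members were all named. Of each related list other than the cell type markers, up to 4 measured genes past 2-fold were named. Where none passed, the 2 with the largest difference were named. Genes named outside this rule are Birc3, Cflar, Fas, Foxo1, Foxo3, Foxo4, Pmaip1 and the cell type markers printed, chosen after their values were seen. Members and lists were chosen with earlier results of these data known. Alternatives were median centring, a lowess trend (span 0.3), other filters, probe set choices and thresholds. Software was pandas 2.3.3, statsmodels 0.14.6, numpy 2.4.6 and Python 3.11.15, and the calculations were tested on simulated data.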

Additional observations from a re-analysis of the deposited data

How the results depend on the processing

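Of 360 recomputed values, 323 stayed within 0.30 on the log2 scale of the reported difference, or within 1.5 times the reported count, and no gene past 2-fold changed sign. Many of these values could not change, so the share does not measure robustness. The filters and the floor setting leave the difference of each named gene as it was. The probe set choices cannot move a gene with 1 probe set. At a threshold of 1.5-fold, 2 members (Bcl2l11 and Bid) were higher in CD8+ DCs, and at 4-fold 0 members were higher in CD8- DCs. With the next brightest probe set of each gene, an alternative chosen after the data were seen, 0 members passed 2-fold in CD8- DCs (Bcl2 at -0.62) and the members' median difference was 0.34 in place of -0.06. Averaging all probe sets gave -1.03 for Bcl2, with 2 of its 5 below the floor on both arrays, and 0.12 for Bak1, whose sign turned, and it left 8 members measured. Averaging only the probe sets that reached the floor, also chosen after the data were seen, gave -0.92 for Bcl2, so that 0 members passed 2-fold in CD8- DCs, and a members' median of 0.12. The stricter filter at the 75th percentile (6.01) left 6 members, Bcl2 among them. Bcl2 passed it only through its CD8- value (6.10, against 4.67 in CD8+ DCs), so its passing is no check on the difference. Centring, which shifts all genes alike, gave -1.46 for Bcl2, and the lowess trend gave -1.44. Setting dim values to the floor could not change Bcl2, because both of its values lie above the floor. For the other lists the count past 2-fold changed by 1 gene at most outside the threshold changes. No paired analysis was possible because each population has 1 array. No detection calls were used, and differences below the floor have little weight.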
